A study of Bos taurus with 20 samples.

Results

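The genes described here are HMGCS1, IDI1, FDFT1, SQLE, CYP51A1, SC5D and INSIG1, which are 7 of the 20011 genes measured under a single symbol in the deposited array table. They were found by their symbol, and where a symbol has several probe sets (groups of short probes against a transcript) the brightest is used. Each of the 7 has 1 probe set, of 23 to 30 probes, none marked as cross-hybridizing. The working name of the group was cholesterol synthesis and LDL uptake. Of the 7 genes, 6 encode enzymes of sterol synthesis and INSIG1 encodes a regulator. None encodes a protein of LDL uptake, so the genes of uptake are described from a list of their own.

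Cholesterol is built from acetyl-CoA by way of mevalonate, isoprene units, squalene and lanosterol. HMGCS1 makes the precursor of mevalonate, IDI1 interconverts the isoprene units, FDFT1 makes squalene, SQLE oxidizes it, CYP51A1 demethylates lanosterol, and SC5D is a desaturase of the last steps. When sterols in the endoplasmic reticulum are low, SREBP transcription factors are released and turn these genes on. INSIG1 holds SREBP back when sterols are plentiful, and is known to be induced by insulin and to be an SREBP target itself. The liver is a main site of this pathway, and around calving it also receives fatty acids set free from body fat.

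The samples were total RNA of liver from 10 multiparous Holstein-Friesian dairy cows, each sampled after and before calving, on 20 one-colour bovine gene arrays. The study asked how a diet low in phosphorus in the dry period, the unmilked weeks before calving, affects the liver transcriptome. The 5 LP cows, named A to E here, ate a ration with 0.16% phosphorus of dry matter during the last 4 weeks before calving. The 5 AP cows, F to J, ate a ration with 0.35%. The 4 groups, of 5 arrays each, are LP postpartum, LP antepartum, AP postpartum and AP antepartum. All cows shared 1 lactation ration with enough phosphorus from calving on, so the postpartum LP cows were no longer deprived. The dry ration was limited in amount for both diets, and urea in the LP concentrate evened out nitrogen. The days of sampling are not given in the labels used here.

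The postpartum array of LP cow C stood apart from the other 19. It had a size of 85.8 on the first principal component of the 20011 genes, which holds 24.8% of the variance, and the next array had 10.3. All 6 fibroblast markers and all 6 adipocyte markers were highest of the 20 arrays there. The mean fibroblast marker level was 4.85 above its average on the log2 scale and the adipocyte level 3.75 above it. The 8 hepatocyte markers averaged 0.44 below theirs, and the next lowest array, the postpartum array of LP cow E, had -0.09. In the 5 arrays of each other group the mean hepatocyte level lay within -0.03 and 0.11. Hepatocyte markers had a median log2 signal of 12.8 over the arrays. In bulk tissue, fewer cells of a type and less RNA per cell cannot be told apart. Several results that rest on this array are given with and without it, but not all.

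HMGCS1 (probe set 12785196, chromosome 20, 31451299 to 31477033 on the plus strand) had the widest range of the 7 genes over the 20 arrays, 9.26 to 11.81 on the log2 scale. The deposited table gives these positions and those below without a genome build. Its log2 signals in LP cows A to E were 11.36, 11.75, 9.86, 10.75 and 10.27 postpartum, and 9.26, 10.69, 10.53, 11.17 and 11.19 antepartum. In AP cows F to J they were 10.51, 11.22, 11.06, 10.51 and 10.74 postpartum, and 10.95, 11.81, 10.89, 10.74 and 10.92 antepartum. The lowest value belonged to cow A before calving, and the groups overlapped at both times and in both diets. The mean was 10.80 ± 0.77 postpartum and 10.57 ± 0.79 antepartum in LP cows (SD, n = 5 each). In AP cows it was 10.81 ± 0.32 postpartum and 11.06 ± 0.43 antepartum (SD, n = 5 each). HMGCS1 in cow A was 4.28-fold higher after calving than before it, and in cow E it was 1.90-fold lower.

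IDI1 (chromosome 13, 46682710 to 46685837, plus strand) acts further down the mevalonate branch. Its signals in LP cows A to E were 10.49, 10.82, 9.63, 10.51 and 10.07 postpartum, and 9.62, 10.19, 10.16, 10.51 and 10.32 antepartum. In AP cows F to J they were 10.16, 10.37, 10.55, 10.44 and 10.26 postpartum, and 10.29, 10.64, 10.28, 10.19 and 10.22 antepartum. As for HMGCS1, cow A was lowest before calving, cow C lowest after it, and cow G highest of the AP cows before it. The IDI1 mean was 10.30 ± 0.46 postpartum and 10.16 ± 0.33 antepartum in LP cows, and 10.36 ± 0.15 postpartum and 10.32 ± 0.18 antepartum in AP cows (SD, n = 5 each).

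FDFT1 (chromosome 8, 7427461 to 7453906, minus strand) makes squalene, the first step that serves sterols alone. Its signals in LP cows A to E were 10.95, 11.08, 9.67, 10.43 and 9.94 postpartum, and 9.65, 10.45, 10.10, 10.21 and 10.51 antepartum. In AP cows F to J they were 10.28, 10.62, 10.72, 10.54 and 10.36 postpartum, and 10.13, 10.93, 10.66, 10.37 and 10.35 antepartum. The values of cows A and B were the highest of the LP cows after calving, and cow A was the lowest before it. The groups overlapped, with means of 10.41 ± 0.61 postpartum and 10.18 ± 0.34 antepartum in LP cows and 10.50 ± 0.18 postpartum and 10.49 ± 0.31 antepartum in AP cows (SD, n = 5 each).

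SQLE (chromosome 14, 16723393 to 16745626, minus strand) encodes the squalene epoxidase, a rate-controlling enzyme of the later pathway. Its signals in LP cows A to E were 10.58, 11.11, 9.49, 10.57 and 10.02 postpartum, and 9.10, 9.97, 9.95, 10.62 and 10.33 antepartum. In AP cows F to J they were 10.12, 10.49, 10.61, 10.39 and 10.44 postpartum, and 10.00, 10.89, 10.11, 10.23 and 10.21 antepartum. SQLE was higher after calving in 6 of 10 cows, by 2.79-fold in cow A and 2.20-fold in cow B, and lower in cow C by 1.38-fold.

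CYP51A1 (chromosome 4, 9306414 to 9323252, minus strand) and SC5D (chromosome 15, 32412564 to 32424511, plus strand) act on the sterol ring. CYP51A1 signals in LP cows ranged over 9.34 to 10.76 postpartum and 9.22 to 10.44 antepartum, and in AP cows over 10.21 to 10.67 postpartum and 9.91 to 10.74 antepartum. Cow C held the lowest postpartum value and cow A the lowest antepartum value of CYP51A1. SC5D varied least of the 7 before calving. Its signals in LP cows A to E were 12.32, 12.50, 11.53, 12.40 and 12.13 postpartum, and 12.11, 12.24, 12.24, 12.53 and 12.41 antepartum. In AP cows SC5D ranged over 11.98 to 12.50 postpartum and 12.33 to 12.50 antepartum.

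INSIG1 (chromosome 4, 117906798 to 117920023, plus strand) followed another order of cows. Its signals in LP cows A to E were 10.85, 10.54, 9.71, 10.59 and 10.40 postpartum, and 10.77, 10.59, 10.55, 10.39 and 11.02 antepartum. In AP cows F to J they were 10.68, 10.05, 10.80, 9.90 and 10.06 postpartum, and 10.49, 10.86, 10.04, 10.56 and 10.56 antepartum. Cow A, lowest before calving in all 6 enzymes, was second highest of the LP cows in INSIG1 at that time. Cow H was the lowest AP cow for INSIG1 before calving and the highest after it. The mean was 10.42 ± 0.43 postpartum and 10.66 ± 0.24 antepartum in LP cows, and 10.30 ± 0.41 postpartum and 10.50 ± 0.29 antepartum in AP cows (SD, n = 5 each).

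**Figure D1:**
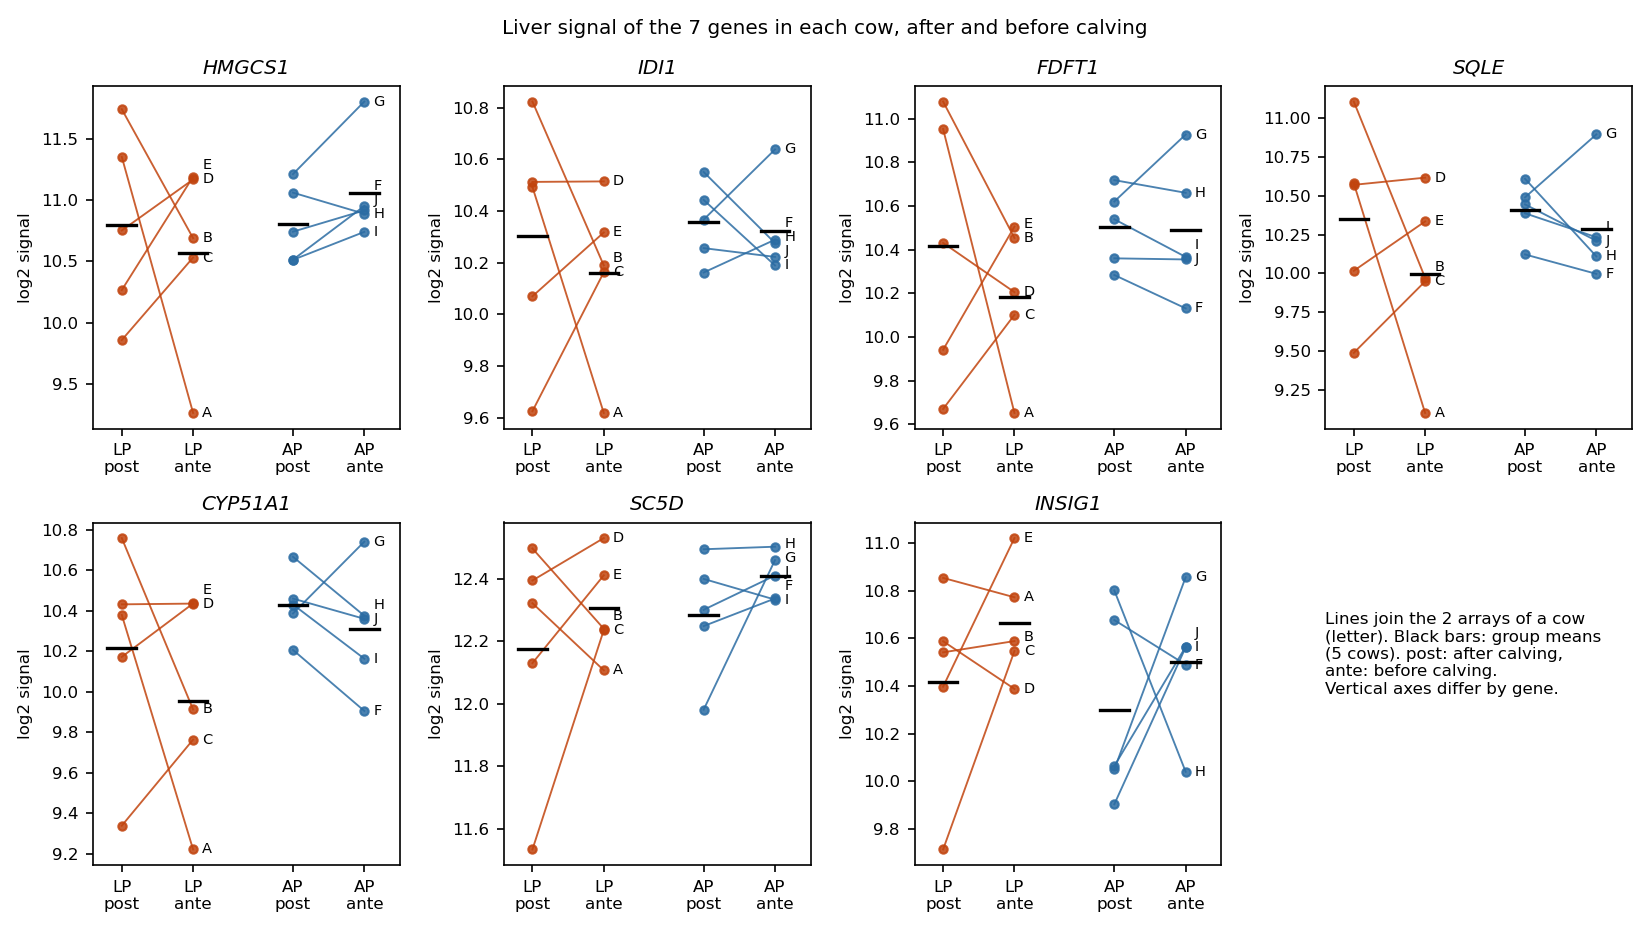
Log2 signal (vertical axis, scaled per gene) of each of the 7 genes, with LP cows in red and AP cows in blue, postpartum left of antepartum; lines join the arrays of a cow, letters name the cow and black bars are means of 5 cows. Cow A is lowest before calving in the 6 enzymes, as for HMGCS1 with 9.26, and the 4 groups overlap in every gene.

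No gene of the 7 passed in the comparison of postpartum with antepartum liver over both diets. This and the following comparisons used limma with Benjamini-Hochberg adjustment over all genes and a threshold of 0.05. Of all genes tested, 1.50% passed there, 140 higher and 160 lower postpartum, and against this background a count of 0 of 7 says little about these genes. At an unadjusted p under 0.05 the count was 0 of 7 too, beside 11.9% of all genes here. It was also 0 of 7 in LP and in AP cows, beside 5.96% and 9.20%, between the diets antepartum, postpartum and over both times, beside 2.45%, 5.66% and 3.64%, and in the interaction of diet and time, beside 2.79%. SQLE differed by 0.24 (95% interval -0.15 to 0.63, adjusted p = 0.724) and was higher in 6 of 10 cows. HMGCS1 differed by -0.01 (95% interval -0.52 to 0.49, adjusted p = 0.991), as the mean of changes between -0.93 and 2.099. INSIG1 had the lowest p of the 7, with a difference of -0.22 (95% interval -0.53 to 0.08, adjusted p = 0.628), and was lower in 6 of 10 cows. Without the postpartum array of cow C the INSIG1 difference was -0.14. The intervals of IDI1, FDFT1, CYP51A1 and SC5D also included 0, with differences of 0.09, 0.12, 0.19 and -0.13. The median difference over the 7 genes was 0.09, against -0.01 over all genes. In the authors' deposited table, the unadjusted paired p-values of the 7 genes lay between 0.211 for SC5D and 0.965 for HMGCS1.

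Within each diet the 7 genes gave the same count of 0. In LP cows 0.0150% of all genes passed between postpartum and antepartum, and in AP cows 0.415% did. In LP cows the difference was 0.36 for SQLE (95% interval -0.20 to 0.91, adjusted p = 0.884) and 0.23 for HMGCS1 (95% interval -0.49 to 0.95, adjusted p = 0.954). Cow A weighed most here: without it the LP difference of HMGCS1 was -0.24. In AP cows the difference was 0.12 for SQLE (95% interval -0.43 to 0.67, adjusted p = 0.954) and -0.25 for HMGCS1 (95% interval -0.97 to 0.47, adjusted p = 0.918). HMGCS1 was higher postpartum in 2 of 5 LP cows and in 1 of 5 AP cows.

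Between the diets, no gene of the 7 passed before calving, when 0.00500% of all genes did. All 6 enzymes had a lower mean in LP than in AP cows at that time. The difference was -0.49 for HMGCS1 (95% interval -1.21 to 0.23), -0.36 for CYP51A1 (95% interval -0.84 to 0.13) and -0.30 for FDFT1 (95% interval -0.78 to 0.17). It was -0.29 for SQLE, -0.16 for IDI1 and -0.10 for SC5D, each with an interval that included 0 and an adjusted p of 1.00. INSIG1 lay the other way, with 0.16 (95% interval -0.27 to 0.59). The median of the 7 was -0.29 against -0.00306 over all genes, and because the 6 enzymes vary together between cows their common sign is not 6 separate observations. Cow A weighed most here too. Without it the difference was -0.17 for HMGCS1, CYP51A1 and FDFT1, -0.07 for SQLE, -0.03 for IDI1 and -0.05 for SC5D. Without cow G it was -0.31 for HMGCS1, -0.14 for SQLE, -0.08 for IDI1 and -0.19 for FDFT1. Of the macrophage markers 8 of 8 had a higher mean in LP than in AP cows at the same time, with a median difference of 0.50. Of all genes 48.9% had a higher mean in LP cows, and markers of 1 cell type are not separate observations. Of these 8 markers 0 passed but 5 had an unadjusted p under 0.05, beside 2.45% of all genes. Their mean level ranged over -0.19 to 0.63 in LP cows, lowest in cow A, and over -0.32 to 0.22 in AP cows. Of T and NK cell markers 6 of 6 were higher in LP cows, with a median of 0.18 and 0 at an unadjusted p under 0.05. Their part in the enzyme differences was not tested. Of the 5 LP cows, 1 lay above the AP mean in FDFT1 and in IDI1, and 2 in HMGCS1, SQLE, CYP51A1 and SC5D.

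After calving, when all cows ate the same ration, the differences between LP and AP cows were smaller in 5 of the 6 enzymes and again 0 of 7 passed, beside 0.00500% of all genes. HMGCS1 differed by -0.01 (95% interval -0.73 to 0.71) and CYP51A1 by -0.21 (95% interval -0.70 to 0.28). The sign rested on the postpartum array of cow C. Without it all 6 enzymes were higher in LP than in AP cows, HMGCS1 by 0.22, SQLE by 0.16 and IDI1 by 0.12, and none passed. The part of the fibroblast and adipocyte signal of that array in these values was not tested.

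Averaged over both times, with each cow counted once, CYP51A1 differed by -0.28 between LP and AP cows (95% interval -0.65 to 0.08), the lowest p of the 7 at 0.114 before and 1.00 after adjustment in limma. With the array of cow C from after calving left out it was -0.24, and with both arrays of that cow left out -0.15. No gene of the 7 passed, beside 0.00500% of all genes.

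The change at calving was compared between LP and AP cows by the diet by time interaction, in which 0% of all genes passed and 559 had an unadjusted p under 0.05. None of the 7 was among those 559. The difference of the changes was 0.48 for HMGCS1 (95% interval -0.54 to 1.50), with a mean change of 0.23 in LP cows and -0.25 in AP cows. For SQLE it was 0.24 (95% interval -0.55 to 1.02), and for INSIG1 -0.04 (95% interval -0.65 to 0.56). Without cow A the difference of the changes was 0.01 for HMGCS1, and without cow E it was 0.77.

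**Figure D2:**
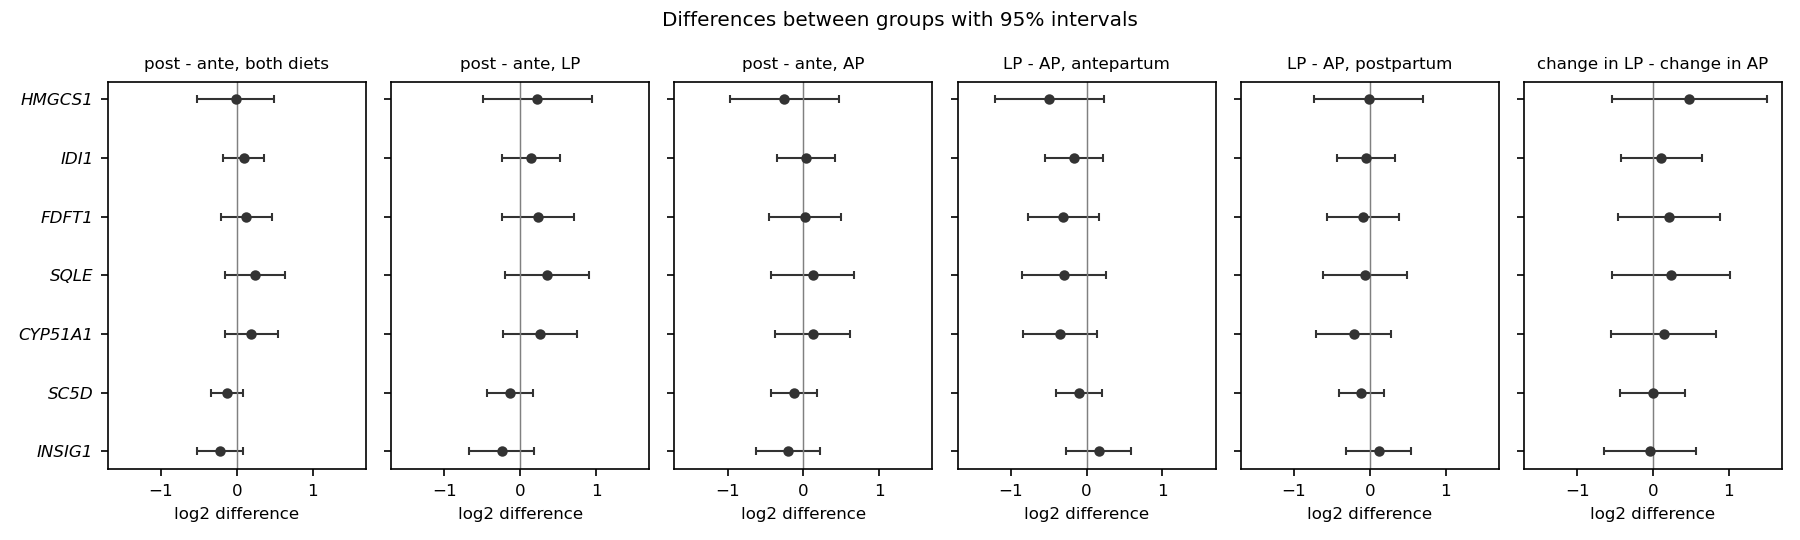
Log2 difference (horizontal axis) of each of the 7 genes in 6 comparisons, with 95% intervals from limma over 20 arrays; the first group named in each panel title is on top of the difference. Every interval includes 0, and the widest belongs to HMGCS1 in the difference of changes, -0.54 to 1.50.

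Single cows moved much more than the group means. In cow A the 6 enzymes were higher postpartum, with a mean change of 1.19 and a range of 0.22 for SC5D to 2.099 for HMGCS1. In cow B all 6 were higher as well, with a mean change of 0.76. In cows C and E all 6 were lower, with mean changes of -0.54 and -0.43, and in cow D the mean change was -0.06. The antepartum array of cow A had mean marker levels, relative to the average of the arrays, of 0.07 for hepatocytes, -0.40 for fibroblasts and -0.17 for adipocytes. The postpartum array of cow B had a fibroblast level of 0.78 and a hepatocyte level of -0.02, and their part in its values was not tested. The AP cows stayed closer together. The antepartum array of cow F had a fibroblast level of 0.92, a skeletal muscle level of 1.43 and an erythroid level of 0.86, whose part in its values was not tested either. The mean changes of the 6 enzymes were -0.01 in cow F, -0.40 in cow G, 0.21 in cow H, 0.11 in cow I and 0.01 in cow J. INSIG1 did not follow cows A and B, with changes of 0.08 and -0.05, and was lower in cows C, E and G by 1.78-fold, 1.54-fold and 1.75-fold. It was also lower in cows I and J by 1.58-fold and 1.41-fold, where the mean change of the enzymes was above 0, and 1.69-fold higher in cow H.

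**Figure D3:**
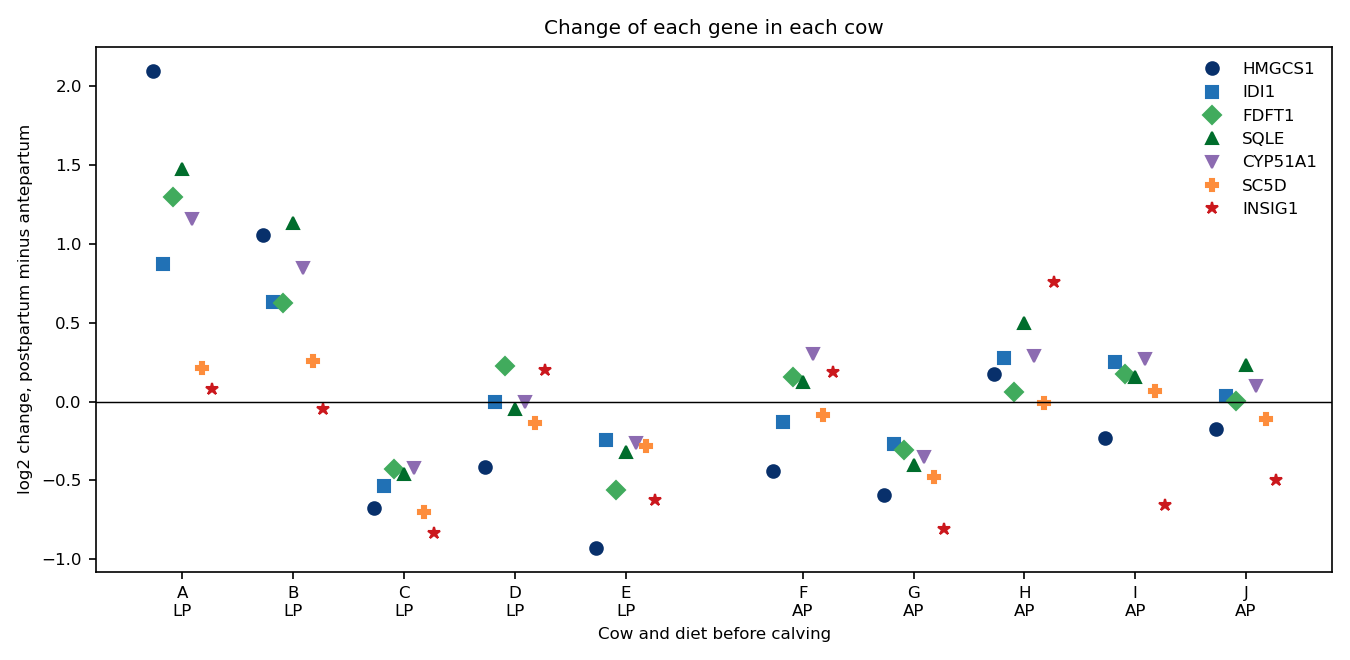
Log2 change, postpartum minus antepartum, of the 7 genes (symbols) in each of 10 cows, LP cows left of AP cows. The 6 enzymes are all above 0 in cows A and B, where they range over 0.22 to 2.099 and 0.26 to 1.134, and all below 0 in cows C, E and G; INSIG1 (stars) lies outside the range of the enzymes in cows A, B, C, G, H, I and J.

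The changes therefore spread more widely in LP than in AP cows for the enzymes. The SD of the HMGCS1 change was 1.30 in LP and 0.29 in AP cows (n = 5 each), a ratio of 4.46. For FDFT1 the SD was 0.77 in LP and 0.19 in AP cows, for SQLE 0.89 and 0.33, for CYP51A1 0.70 and 0.28, for IDI1 0.59 and 0.24, and for SC5D 0.39 and 0.21. INSIG1 ran the other way, with 0.46 in LP and 0.66 in AP cows. A larger ratio than that of the gene was found in 2.61% of all genes for HMGCS1, 3.69% for FDFT1, 10.9% for SQLE, 12.8% for CYP51A1, 13.1% for IDI1 and 25.6% for SC5D. The median ratio over all genes was 1.27, so LP changes were somewhat more variable in general. Without cow C the HMGCS1 ratio was 4.75 and the median over all genes 1.11, and without cow A they were 3.05 and 1.24, with 8.55% of all genes above HMGCS1. These ratios were noticed in the data and are given with no test.

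The 6 enzymes varied together from cow to cow. Each value was taken as the deviation from the mean of its diet, and the 21 pairs of genes were correlated over the 10 cows for the postpartum level, the antepartum level and the change, 63 relations in all. P-values came from 100000 permutations of cows within diets, two-sided, adjusted by Benjamini-Hochberg over the 63 relations. Of the 15 enzyme pairs, 14 passed in each of the 3 measures by Pearson's r, 42 relations in all. By Spearman's rho 11 passed postpartum, 12 antepartum and 15 for the change. The change is made from the postpartum and antepartum levels, so the 42 are not separate relations. Pairs of other genes were not put through this test, so no share over all genes stands beside these counts. The median r of the 15 pairs was 0.92 postpartum (range 0.63 to 0.98), 0.84 antepartum (0.61 to 0.98) and 0.93 for the change (0.77 to 0.98).

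HMGCS1 and IDI1, early enzymes of the pathway, had r = 0.98 and rho = 0.95 antepartum (permutation p = 0.000870, adjusted p = 0.00548), and r = 0.93 without cows A and G. For the change, SQLE and CYP51A1 had r = 0.98 and rho = 0.92 (permutation p = 0.00117, adjusted p = 0.00588), and r = 0.96 without cows A and C. SC5D was in each pair that missed the threshold. With HMGCS1 it had r = 0.63 postpartum and 0.77 for the change, and with FDFT1 0.61 antepartum. The postpartum relation of HMGCS1 with SC5D rested on cows B and C, since r was 0.01 without them.

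The relations differed in how far they rested on single cows. Without the 2 cows farthest from the median of the first gene, the median r of the enzyme pairs was 0.70 postpartum (range 0.01 to 0.92), 0.74 antepartum (0.42 to 0.93) and 0.90 for the change (0.80 to 0.98). Without cow C it was 0.81 postpartum, 0.84 antepartum and 0.93 for the change. Without cow A it was 0.71 antepartum. Of the 15 antepartum pairs 5 then passed, and 9, 8 and 9 passed without cows C, E and G, each fit having 9 cows. Of the postpartum pairs 8 passed without cow B and 7 without cow C. For the change, 12 to 14 pairs passed whichever cow was left out. All 20 arrays share 1 normalization, and the enzymes' co-variation was measured on it.

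INSIG1 varied apart from the enzymes before calving. Its 6 pairs had r between -0.22 and 0.17 antepartum, between 0.54 and 0.70 postpartum, and between 0.46 and 0.58 for the change, and none passed (lowest adjusted p = 0.0701, with SC5D postpartum). The antepartum values depended on single cows. Without the 2 cows farthest from the median of the first gene they lay between 0.03 and 0.77, with a median of 0.19. The median antepartum r was 0.13 with all cows, -0.16 without cow G and 0.34 without cow D. Without cow C the median postpartum r was 0.18, against 0.58 with all cows, and without cow F it was 0.71. With 1 cow left out, 3 of the 6 pairs passed postpartum without cow F and 1 without cow I, and for the change 3 passed without cow D and 1 without cow I. Whether r differs between the times was not tested.

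**Figure D4:**
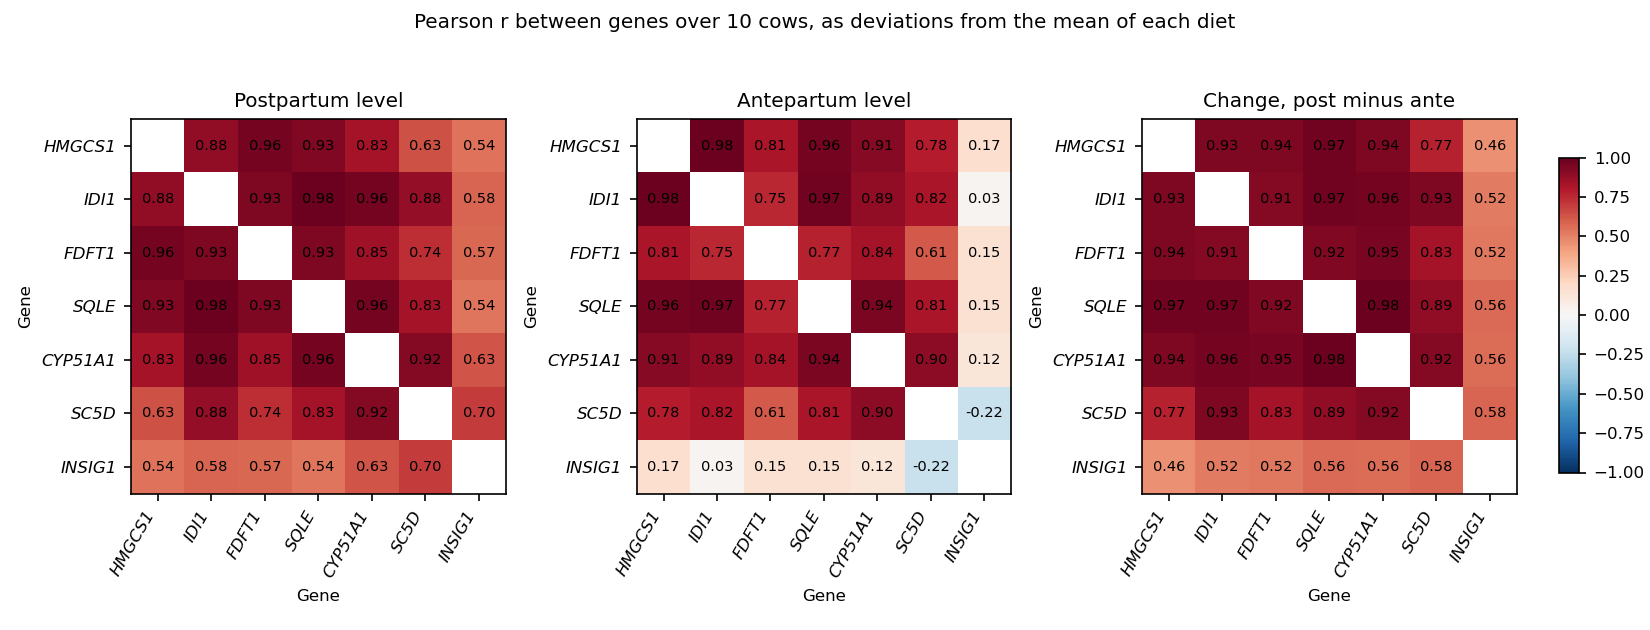
Pearson r (colour and number) between each pair of the 7 genes over 10 cows, as deviations from diet means, for the postpartum level, the antepartum level and the change. The block of 6 enzymes lies between 0.61 and 0.98 throughout, and the row of INSIG1 falls to -0.22 antepartum.

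A cow's level before calving did not carry over in a way that could be detected. For each gene the postpartum deviation was set against the antepartum deviation over the 10 cows, 7 relations chosen after the data had been seen. The postpartum array of cow C is part of every r given here. Pearson's r lay between -0.33 for INSIG1 and 0.15 for CYP51A1, and Spearman's rho between -0.27 for INSIG1 and 0.18 for CYP51A1, with permutation p from 0.380 to 0.976 for r and an adjusted p of 0.976 for each. Without the 2 cows farthest from the antepartum median, r moved to -0.03 for HMGCS1, against -0.18 with all cows, to 0.33 for FDFT1, against -0.01, to 0.39 for CYP51A1, against 0.15, and to -0.10 for INSIG1, against -0.33.

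The genes most like the 7 were sought among the other 20004 by Pearson's r with the mean of the 7, as deviations from group means over 20 arrays. FDPS had r = 0.97, MSMO1 0.96, and ACAT2, LSS, NSDHL and DHCR7 each 0.93. These 6 encode other enzymes of sterol synthesis: ACAT2 acts at its start, FDPS makes farnesyl diphosphate, LSS closes the sterol ring, and MSMO1, NSDHL and DHCR7 work on it. PCYT2, an enzyme of phosphatidylethanolamine synthesis, had r = 0.90 and CETN2, a centrin, 0.89. Over all other genes the median was 0.03, the 5th percentile -0.50 and the 95th 0.51. The arrays of a cow and the shared normalization enter every such r, and no p is given. Without the postpartum array of cow C, FDPS had 0.95, MSMO1 0.95, ACAT2 0.90, DHCR7 0.90, and LSS and NSDHL 0.89 each, while ACSS2, which activates acetate, ranked between MSMO1 and ACAT2 with 0.92.

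Related genes were compared by lists of the same pathway and of its neighbours. Among 16 other enzymes of sterol synthesis, 14 had r above 0.5, with a median of 0.88, beside 5.53% of all other genes. The exceptions, singled out after their values were seen, were GGPS1, which makes geranylgeranyl diphosphate, with -0.10, and LBR, a sterol reductase that is also a receptor of the nuclear lamina, with 0.20. Of 12 genes of uptake and transport 1 had r above 0.5, with a median of -0.07. Of 12 genes that control SREBP 1 did, with a median of 0.08. It was SREBF2, also picked out after its value was seen, with 0.76, and it encodes the SREBP form best known for sterol genes. For 12 genes of sterol export, esters and bile acids the median was 0.41 and for 12 of fatty acid synthesis 0.49, with 5 above 0.5 in each.

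Without the postpartum array of cow C, 14 of 16 synthesis enzymes again had r above 0.5, beside 2.06% of all other genes. For fatty acid synthesis 10 of 12 genes then did, with a median of 0.60, and for uptake 1 of 12 with a median of 0.07. Of the genes that control SREBP 2 of 12 did, with a median of -0.06. They were SREBF2 with 0.63, against 0.76 over 20 arrays, and SREBF1 with 0.53, against 0.37. For sterol export, esters and bile acids it was 4 of 12 with a median of 0.29. INSIG1 alone had a median r of 0.40 with the 6 enzymes over 20 arrays and 0.20 without that array.

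**Figure D5:**
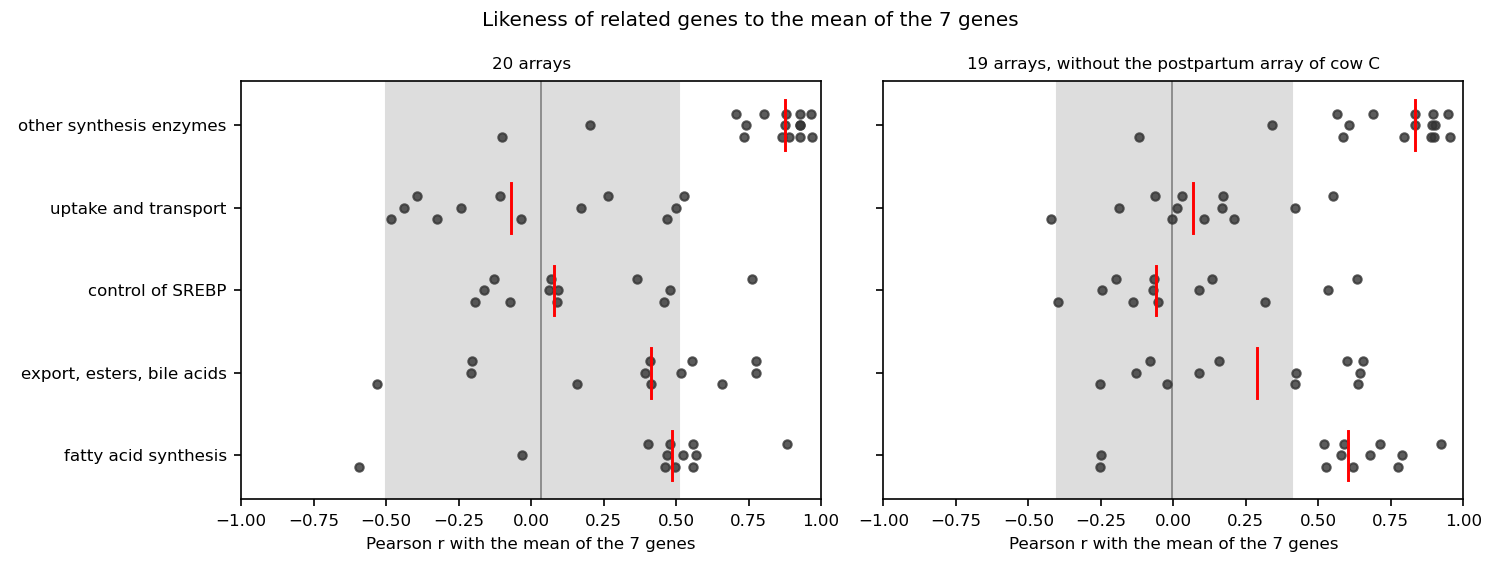
Pearson r (horizontal axis) of each related gene (points, 5 lists) with the mean of the 7 genes over 20 arrays and over 19 arrays; red bars are list medians, the grey band spans the 5th to 95th percentile of all other genes and the grey line is their median. The synthesis enzymes lie to the right of the band but for GGPS1 and LBR, with a median of 0.88 over 20 arrays.

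Of the 16 other synthesis enzymes, 0 passed in each of the 7 comparisons, where 0% to 1.50% of all genes did. Postpartum against antepartum over both diets, 8 of 16 were higher, with a median of 0.00199. Of the 16, 1 had an unadjusted p under 0.05, beside 11.9% of all genes. The 3 lowest p included EBP, a sterol isomerase, with -0.36 (SE 0.17, adjusted p = 0.406), and PMVK, the phosphomevalonate kinase, with -0.20 (SE 0.10, adjusted p = 0.472). Before calving 15 of 16 had a lower mean in LP than in AP cows, with a median of -0.18. Of all genes 48.9% had a higher mean in LP cows at that time. Because 14 of the 16 varied with the 7 genes between arrays (r above 0.5), their common sign is not a set of separate observations. No value without cow A is given for them.

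Of 13 genes listed for uptake and transport 12 were measured. Over both diets 1 rose and 0 fell postpartum, beside 1.50% of all genes passing in either direction. SCARB1, the receptor for high-density lipoprotein, rose by 0.51 (SE 0.10, adjusted p = 0.0125), with a mean of 9.05 postpartum and 8.54 antepartum, and was higher in 9 of 10 cows. In AP cows SCARB1 rose by 0.66 (SE 0.14, adjusted p = 0.0454). When the arrays of each cow were paired by a replicate block, the adjusted p in AP cows was 0.0557. NPC2, which hands cholesterol out of lysosomes, differed by -0.41 (adjusted p = 0.115), and STARD4, a cholesterol carrier of the cytosol, by 0.40 (adjusted p = 0.177).

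Of 12 genes that control SREBP, 0 rose and 1 fell postpartum over both diets, beside 1.50% of all genes passing in either direction. RNF145, a ubiquitin ligase of the endoplasmic reticulum, fell by 0.32 (SE 0.08, adjusted p = 0.0352), and was lower in 10 of 10 cows. With cows paired by the replicate block its adjusted p was 0.0590. SREBF1, which encodes the SREBP form best known for fatty acid genes, differed by -0.46 (SE 0.12, adjusted p = 0.0584), and NR1H3, the liver X receptor alpha, by -0.20 (adjusted p = 0.358).

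Among the 5 lists the lowest p-values over both diets belonged to sterol export. Of 12 genes of export, esters and bile acids, 3 fell and 0 rose over both diets, beside 1.50% of all genes passing in either direction. ABCG5 and ABCG8 together form the transporter that moves sterols into bile. ABCG5 fell by 1.23 (SE 0.21, adjusted p = 0.00504), to 6.30 postpartum against 7.52 antepartum. ABCG8 fell by 1.23 (SE 0.21, adjusted p = 0.00528), to 6.77 postpartum against 8.00 antepartum, and both were lower in 10 of 10 cows. CYP7B1, an oxysterol hydroxylase, fell by 0.46 (SE 0.11, adjusted p = 0.0367; with the replicate block for paired cows 0.0548). In AP cows alone ABCG5 fell by 1.41 (adjusted p = 0.0318) and ABCG8 by 1.59 (adjusted p = 0.0222). In LP cows none of the 12 passed, beside 0.0150% of all genes there and 0.415% in AP cows. The lowest of their differences in LP cows was -1.04. In the interaction of diet and time 0 of the 12 had an unadjusted p under 0.05, beside 2.79% of all genes.

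Of 12 genes of fatty acid synthesis 2 fell and 0 rose over both diets, beside 1.50% of all genes passing in either direction. GPAM, the first acyltransferase of triglyceride synthesis, fell by 0.57 (SE 0.12, adjusted p = 0.0150). THRSP, a lipogenic regulator, fell by 1.34 (SE 0.32, adjusted p = 0.0358) and was lower in 7 of 10 cows. In AP cows GPAM fell by 0.76 (adjusted p = 0.0469) and THRSP by 2.30 (adjusted p = 0.0265). FADS2, a fatty acid desaturase, differed by -1.61 (SE 0.41, adjusted p = 0.0521). Some cell markers, named here after their values were seen, changed in the same comparison over both diets. TTR and TF, plasma proteins of hepatocytes, fell by 0.61 (SE 0.11, adjusted p = 0.00539) and 0.25 (SE 0.06, adjusted p = 0.0301), and C1QC, a complement gene of macrophages, by 0.56 (SE 0.13, adjusted p = 0.0340). The other 6 of 8 hepatocyte and 7 of 8 macrophage markers did not pass. Hepatocyte markers went both ways, 3 higher and 5 lower postpartum, and ARG1 differed by 0.67 (SE 0.18, adjusted p = 0.0660). Of the macrophage markers 1 was higher and 7 were lower. The part of these markers in the changes of the lists was not tested. No gene of the 5 lists passed in LP cows, beside 0.0150% of all genes, or between the diets, beside 0.00500% in each comparison. None passed in the interaction either, beside 0%, and whether the changes differ between the diets is what that interaction tests.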

How the data were processed

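The authors deposited log2 signals for 24333 probe sets on 20 arrays, made with SST-RMA per the file headers and, per the submitters' processing notes, with RMA in Affymetrix Expression Console 1.4. This method equalizes the arrays (medians 5.97 to 6.14), which hides any change common to all genes. The authors' deposited table also holds for each probe set the log2 ratio of postpartum to antepartum, a signed fold change (a score) and a paired p-value, not adjusted. A gene was a symbol given to a probe set alone, with the brightest of several probe sets kept, and 3912 probe sets without a single symbol were left out. Dim genes were kept.

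Differences of group means over all 20 arrays came from limma 3.58.1 under R 4.3.3 (lmFit and eBayes, two-sided, Benjamini-Hochberg over 20011 genes, threshold 0.05), and cow means over both times. The number of arrays, 5 a group, limits the precision. Both arrays of a cow carry its number in the labels, so numbers pair the arrays by animal; deviations of same-cow arrays correlated with a median r of 0.17 (0.07 to 0.31). The animal as a block, quantile normalization, a filter on the dimmest 25% of genes, probe set means, other variance models, array weights, the second deposited table, fewer groups and left-out cows were tried. Permutations used Python 3.11.15 with numpy 2.4.6. Fits and permutations were tested on simulated data. Marker levels are means over a list's genes of the deviation from each gene's mean over the arrays. Of 65 related genes listed, 64 were measured. Named from the lists were the genes that passed in a comparison and the 3 of lowest p for time over both diets, and for likeness the 8 highest r; a few genes that these rules select are not reported here. The 7 genes and all lists were chosen with earlier results of these data known.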

Additional observations from a re-analysis of the deposited data

Results flagged for a closer look

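Cow G stood apart from the other 4 AP cows before calving in 3 of the enzymes, with a gap to the nearest cow that took up most of the group's range. HMGCS1 was 11.81 in cow G and 10.95 in the next AP cow, a gap of 0.801 of the range. IDI1 was 10.64 in cow G against 10.29 in the next cow, a gap of 0.778. SQLE was 10.89 against 10.23, a gap of 0.737. Each gap exceeded the 95% critical value of Dixon's test for 5 samples. The test was applied to 42 groups, the levels and changes of the 7 genes in each diet, where chance flags about 5% of groups, and the 3 genes vary together, so they are not separate flags. The antepartum array of cow G had a fibroblast marker level of -0.02 and an adipocyte level of 0.12, and their part in its values was not tested.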

How the results depend on the processing

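None of the 7 genes passed in any of the 7 comparisons under any of the 17 to 19 alternatives run for each. The unadjusted count of 0 was less stable. Of the recomputed values, 4 over both diets, 6 in LP, 1 in AP and 4 for diet over both times had an unadjusted limma p under 0.05. In the other comparisons 0 did. The lowest was 0.0234, for INSIG1 over both diets without cow H. With cows paired by the replicate block, the lowest adjusted p of the 7 genes was 0.595 over both diets, and the block changed no call of the 7. The block gave 126 genes in AP cows against 83 without it. Over all alternatives the count of all genes was 131 to 654 for time over both diets (300 in the report), 13 to 613 in AP (83), 0 to 9 in LP (3), and 0 to 2 in the diet comparisons (1 each). Array weights gave the highest counts over both diets and in AP. Signs of small differences were less settled: 67 of 903 recomputed values of the 7 genes turned, and the cause was not tested. With array weights, HMGCS1 was 0.11 over both diets, SC5D 0.028 in LP, and postpartum LP minus AP 0.28, 0.14, 0.12, 0.19 and 0.022 for HMGCS1, IDI1, FDFT1, SQLE and SC5D; in the interaction SC5D was 0.12 and INSIG1 0.14. With quantile normalization, AP changes of IDI1 and FDFT1 were -0.00096 and -0.0043, postpartum LP minus AP of HMGCS1, IDI1 and SQLE 0.061, 0.013 and 0.0060, and the interaction of SC5D 0.056. Without the postpartum array of cow C, HMGCS1 was 0.10 over both diets, SC5D 0.031 in LP, postpartum LP minus AP 0.22, 0.12, 0.10, 0.16, 0.0055 and 0.051 for HMGCS1, IDI1, FDFT1, SQLE, CYP51A1 and SC5D, and the interaction 0.15 for SC5D and 0.14 for INSIG1. Leaving out each cow in turn gave, over both diets, -0.25 to 0.13 for HMGCS1, -0.0026 to 0.17 for IDI1 and -0.010 to 0.22 for FDFT1. In LP it gave -0.24 to 0.52 for HMGCS1, -0.038 to 0.31 for IDI1, -0.036 to 0.43 for FDFT1 and -0.23 to 0.014 for SC5D. In AP it gave -0.028 to 0.11 for IDI1 and -0.023 to 0.097 for FDFT1. For postpartum LP minus AP it gave -0.25 to 0.22 for HMGCS1, -0.18 to 0.12 for IDI1, -0.26 to 0.10 for FDFT1, -0.25 to 0.16 for SQLE, -0.35 to 0.0055 for CYP51A1 and -0.19 to 0.051 for SC5D. For the interaction it gave -0.071 to 0.28 for IDI1, -0.053 to 0.41 for FDFT1, -0.044 to 0.44 for SQLE, -0.083 to 0.31 for CYP51A1, -0.10 to 0.14 for SC5D and -0.19 to 0.20 for INSIG1. It gave 0.011 (without A) to 0.77 (without E) for HMGCS1. For antepartum LP minus AP all 7 signs held in the 19 alternatives, but the sizes did not: without cow A, HMGCS1 was -0.17, SQLE -0.071 and IDI1 -0.027. Of the relations between cows, 29 to 44 passed with a cow left out (42 with all), and the median antepartum r of INSIG1 with the enzymes ran from -0.16 to 0.34. Of the related genes, ABCG5 and ABCG8 passed over both diets in all 18 alternatives, SCARB1 in 16, GPAM in 15, CYP7B1 and THRSP in 10 and RNF145 in 9. Without each of cows D to J, CYP7B1, THRSP and RNF145 missed the threshold, RNF145 also without cow A, GPAM without D, E or F and SCARB1 without I or J. Their highest adjusted p with a cow left out was 0.117, 0.135, 0.113, 0.0606 and 0.0562. In AP the 5 calls held in 12 to 15 of 19 alternatives. They were lost without F, G, H, I or J for THRSP, F, H, I or J for ABCG8, those or D for ABCG5, those or A or B for SCARB1, and A, D or F to J for GPAM (highest adjusted p = 0.154, 0.129, 0.176, 0.233 and 0.256).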
